A study of Homo sapiens with 8 samples.

Results

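The nuclear-encoded genes of the mitochondrial respiratory chain were followed in MIAPaCa-2 cells, an established epithelial cell line from a human pancreatic carcinoma. Members were chosen by symbol: protein-coding nuclear genes that begin with NDUFA, NDUFB, NDUFC, NDUFS, NDUFV, UQCR, COX4, COX5, COX6, COX7, COX8 or ATP5, together with SDHA, SDHB, SDHC, SDHD and CYC1. ATP5IF1 and symbols with a hyphen were left out. This gave 96 of the 63568 genes in the count table, which held 19475 protein-coding nuclear genes. By symbol, 39 belonged to complex I, 4 to complex II, 10 to complex III, 17 to complex IV and 18 to complex V. The other 8 were NDUFAF genes, which encode complex I assembly factors and no subunit, and they are given apart.

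The cells expressed a short hairpin RNA, either a control one (shRNA-Control, named control cells) or one against METTL3 (shRNA-METTL3, named METTL3-KD cells). METTL3 is the enzyme that writes most N6-methyladenosine (m6A) in mRNA. In MeRIP-seq, fragmented RNA is pulled down with an m6A antibody and sequenced beside an input fraction set aside before the pull-down. Each condition had 1 input library and 1 m6A library, each with 2 samples labeled as sequencer lanes, so the lanes were summed and no difference between conditions has a replicate check. The METTL3-KD line came from an earlier study, and the number of clones behind either line is not given in the sources used here.

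The respiratory chain carries electrons from NADH (complex I) and succinate (complex II) through coenzyme Q, complex III, cytochrome c and complex IV to oxygen. The protons moved by complexes I, III and IV drive ATP synthesis by complex V. Most subunits are encoded in the nucleus and imported, while a few core subunits are made from mitochondrial DNA. Genes of the pathway are expressed in nearly all cells, and some complex IV subunits have isoforms restricted to muscle, lung or testis.

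At a q value under 0.01 the deposited lists held 12 exonic m6A peaks in these genes, and 6 of them had a DRACH motif in the exon within 25 nt of the peak summit. DRACH is the sequence context in which the methyltransferase acts: A, G or T, then A or G, then A, then C, then A, C or T. The limit of 25 nt was set after the sites were seen, and the share of all windows with a motif was not computed for it. Of the peaks shown, only that of ATP5F1E rested on more than 1 fragment and exceeded a fold of 2, as the study asks. The windows below are shown because they hold the DRACH adenosines nearest to those summits, and methylation of these adenosines was not tested. They were read from GRCh37 (hg19) on the strand of the gene, 5′ to 3′, with the DRACH motif in capitals. The first 4 lie under control m6A peaks and the last 2 under METTL3-KD m6A peaks. NDUFB3 and ATP5F1D lie in a 3′UTR and the others in coding sequence.
COX4I1, chr16:85840438-85840466 (+): agcctccaagtgGGACTacgaaaagaacg
UQCRQ, chr5:132203201-132203229 (+): tctacacatgggGGACTgaagagttcgag
NDUFA8, chr9:124906590-124906618 (-): ccctatcactcaAGACCaagaccggatcc
NDUFB3, chr2:201950359-201950387 (+): atagtggtttctTAACTctccaaaataag
ATP5F1E, chr20:57605391-57605419 (-): caaatgctgagaAGACTtctggcagcaac
ATP5F1D, chr19:1244740-1244768 (+): agccgccaaggtTGACCtcagcttcggag

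The depth and the checks of the series were as follows. The input lanes held 1609215 and 1628753 counted reads in control cells and 906240 and 926765 reads in METTL3-KD cells. The control input reads lay at 9291 distinct positions and the METTL3-KD input reads at 52141, as the peak caller recorded them. It recorded 2880835 control and 1337448 METTL3-KD input reads, fewer than the 3237968 and 1833005 counted over genes. A read may therefore have been counted in more than 1 gene, and the shares below are of counted reads. Reads per gene clustered in modes, and the lower mode, 512 reads in the control and 19.4 reads in METTL3-KD cells, is used below as 1 unit, a rough scale. It was chosen as the mode closest to 1 log2 step under the highest mode (1039 and 35.4 reads). Whether units follow the number of distinct molecules alike in both inputs was not tested. Ratios of units, also given as reads over the lower mode, were not scaled to library size unless a scaling is named. METTL3 itself had 0 reads in all 4 lanes, so the knockdown could not be checked. The epithelial keratins KRT8 (10850 and 1167 reads in control and METTL3-KD cells) and KRT18 (3535 and 1212) were read in both, whereas EPCAM and CDH1 had 0 reads in both. KRT7 had 1 and 0 reads and KRT19 had 1 and 201 reads. VIM had 8978 and 5649 reads, and the leukocyte, fibroblast and erythroid markers PTPRC, CD3E, COL1A1, COL3A1 and HBB were at 0 in both. In bulk samples of this kind, less RNA per cell and fewer expressing cells cannot be told apart.

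The respiratory chain took almost the same share of counted reads in both inputs, but spread over very different numbers of genes. Its members held 13356 reads in the control input, 0.4125% of all counted reads (95% exact Clopper-Pearson interval 0.4055% to 0.4195%), and 7728 reads in the METTL3-KD input, 0.4216% (0.4123% to 0.4311%). Shares of the input reads that the peak caller recorded (2880835 and 1337448) are not given, and by these the METTL3-KD share would be the larger one. In control cells 19 members had at least 1 read and 16 had at least 10, against 10.2% and 8.78% of all protein-coding nuclear genes. In METTL3-KD cells 79 had at least 1 read and 75 had at least 10, against 39.6% and 37.3% of those genes. Of the 75, 15 also had at least 10 control reads, against 20.2% of the genes with as many METTL3-KD reads. The lanes agreed on this: members with a read numbered 18 and 18 in the control lanes and 78 and 79 in the METTL3-KD lanes. Intervals cover counting error only, because the libraries carried no molecular identifiers and reads may be copies of one molecule.

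**Figure D1:**
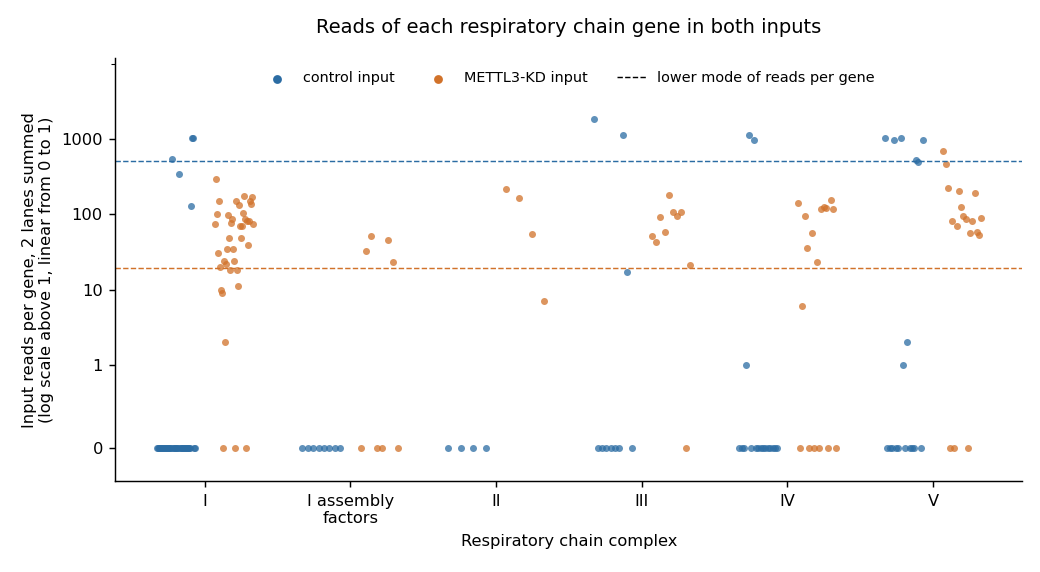
Reads of each of the 96 genes, summed over 2 lanes, in the control input (blue) and the METTL3-KD input (orange), by complex, with each input's lower mode of reads per gene as a dashed line. The vertical axis is logarithmic above 1 read. In the control, 77 genes sit at 0 and most of the others near 1 or 2 times the lower mode, whereas 75 genes have at least 10 reads in METTL3-KD cells.

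The control reads of the members were set against the unit. Because the unit was a mode of the control reads of all genes, values near 1 and 2 units were built in for genes as a whole. Of the 16 members with at least 10 control reads, 3 lay within 15% of 1 unit and 9 within 15% of 2 units, against 20% and 42.1% of the 2212 genes with that many reads. Their values ranged from 0.0332 units, in UQCRHL, to 3.62 units, in CYC1. In METTL3-KD cells the 75 members with at least 10 reads had a median of 4.23 units (0.516 to 36), and 47 of them were under 5 units. The presence of a member among the control reads thus rested on 1 to 4 units, rounded, in 14 of the 16 members, and on less in NDUFS7 and UQCRHL.

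Detection in the control was also read against abundance in METTL3-KD cells. Among members with 100 or more METTL3-KD reads, 6 of 27 (22.2%) had at least 10 control reads, compared with 38.6% of 2076 protein-coding genes in that range. Between 50 and 99 reads the shares were 6 of 27 members (22.2%) and 16.5% of genes. Between 10 and 49 reads they were 3 of 21 members (14.3%) and 11% of genes. No test was made of these shares, because each input is 1 library.

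To compare expression, the log2 ratio of METTL3-KD over control was computed from library-scaled reads (counts per 1e6, CPM) after TMM normalization (a trimmed mean of gene-wise ratios), with a prior count of 2, for genes with at least 10 reads over both inputs. Of the 96 members, 76 passed this filter, 60 had a log2 ratio above 2, 5 were under -2 and 11 lay between. Across all 9931 genes that passed, 79.1% were above 2 and 7.37% under -2, and among the 7510 protein-coding nuclear genes 78.4% and 7.39%. Those under -2 were CYC1, UQCRHL, COX6A1, NDUFB1 and NDUFB6. This count was 11 with total-count scaling, 0 on units, which are not scaled to library size, and 3 without lane 1. The members' 60 of 76 above 2 was thus close to the share in all genes. Of the 60 members, 57 had 0 control reads, and COX5B, ATP5ME and ATP5MG had 1 or 2, so the size of their ratios depends on the prior count. So does that of UQCRHL, which had 0 METTL3-KD reads. With 0 control reads, a gene passed the filter only with at least 10 METTL3-KD reads, which here gives a ratio of at least 3.90. For the 57, a ratio above 2 was therefore fixed by the filter, also in the counts by complex below. The median log2 ratio was 6.30 in the members and 5.60 in all genes. With genes at or under 3 reads in either input set to that floor, the medians were 6.47 and 5.70.

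**Figure D2:**
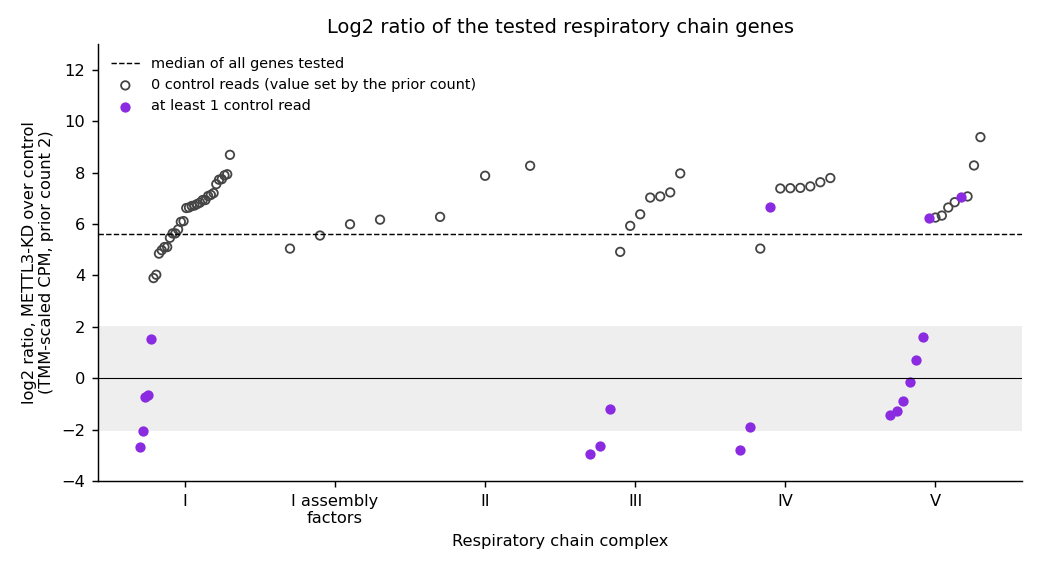
Log2 ratio of METTL3-KD over control input (TMM-scaled CPM, prior count 2) of the 76 tested genes by complex. Open circles had 0 control reads, filled points at least 1, the gray band spans -2 to 2 and the dashed line is the median of all 9931 genes, 5.60. The points split into a cloud above 2 and a set of 16 genes under 2, all with control reads. The filter on reads puts every gene with 0 control reads above 2.

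A gene at 0 control reads is bounded only as far as the depth goes. Of the 61 members with 0 control reads and some METTL3-KD reads, the lower bounds on the fold in scaled reads, set against 3 control reads, ran up to 727 in ATP5F1B. Set against 3 units in the control (1536 reads, 295 TMM-scaled CPM), only ATP5F1B exceeded the floor, with 419 TMM-scaled CPM in METTL3-KD cells. With total-count scaling the floor was 474 CPM and none of the 61 exceeded it, the highest being ATP5F1B at 260.2 CPM. For the other 60, a difference between conditions was not detectable at the depth of the control in units.

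The 5 complexes took different parts of the reads. In the control, complex V had 0.158% of all counted reads, complex I 0.0960%, complex III 0.0926%, complex IV 0.0664% and complex II none. In METTL3-KD cells complex I led with 0.151%, followed by complex V with 0.142%, complex IV with 0.0546%, complex III with 0.0414% and complex II with 0.0246%. Complex I and complex II therefore had a larger share of counted reads in METTL3-KD cells and complexes III, IV and V a smaller one. The control shares rest on few units, 9.96 in complex V and 4.20 in complex IV. With another denominator these directions can differ. Complex V held 5099 control and 2598 METTL3-KD reads, against 2880835 and 1337448 input reads recorded by the peak caller. With that denominator its share is larger in METTL3-KD cells. The assembly factors had 0 control reads and 152 METTL3-KD reads.

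**Figure D3:**
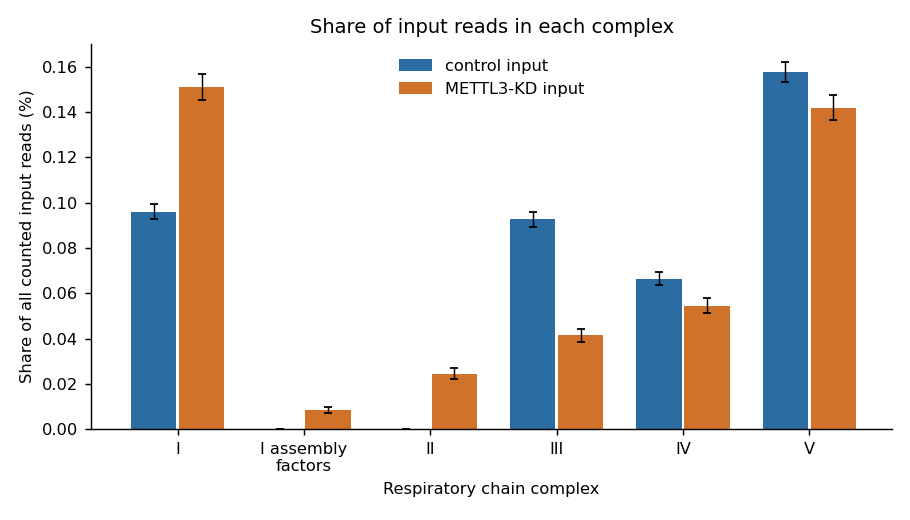
Share of all counted input reads in each complex, in percent, for the control input (blue) and the METTL3-KD input (orange). Error bars are 95% exact Clopper-Pearson intervals, which cover counting error only. Complex III had 0.0926% of control and 0.0414% of METTL3-KD reads, and complex I had 0.0960% and 0.151%.

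The direction of the summed ratio depended on the scaling in 3 complexes. Under TMM scaling the log2 ratio of the summed reads was 2.03 in complex I (95% interval 1.95 to 2.10), 0.21 in complex III (0.09 to 0.33), 1.09 in complex IV (0.98 to 1.20) and 1.22 in complex V (1.15 to 1.29). Under total-count scaling the values were 0.65 in complex I, -1.16 in complex III, -0.28 in complex IV and -0.15 in complex V. Complex II, at 0 of 3237968 control reads, had at least 686-fold more scaled reads in METTL3-KD cells against the floor of 3 reads. Against the floor of 3 units its 395 TMM-scaled CPM were at least 1.34-fold higher, and its 245.5 CPM under total-count scaling lay under the floor of 474 CPM. With DESeq2 size factors the values for complexes I, V, IV and III were 2.28, 1.48, 1.35 and 0.47. Another scaling shifts all of them by the same amount, so it cannot change their order. In units, the control held 6.07 in complex I, 5.86 in complex III, 4.20 in complex IV and 9.96 in complex V, so each control sum rests on a handful of units.

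Complex I, the NADH dehydrogenase, had 5 of its 39 genes at 10 or more reads in the control and 34 in METTL3-KD cells. Of the 34 tested, 29 had a log2 ratio above 2, 2 were under -2 and 3 lay between, against the 79.1% above 2 and 7.37% under -2 in all genes. Of the nuclear core subunits, which include those that hold the flavin and the iron-sulfur clusters, 3 were read in the control. NDUFS8, an iron-sulfur subunit, had 529 and 525 reads in the lanes of the control and 73 and 76 in those of METTL3-KD cells. NDUFV1, which binds NADH and the flavin, had 509 and 525 control reads and 69 and 68 METTL3-KD reads. Their log2 ratios, -0.63 and -0.72, lay close to the median of all genes read in both inputs, -0.61.

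NDUFS7, a further iron-sulfur subunit, had 63 and 68 control reads and 44 and 39 METTL3-KD reads, with a log2 ratio of 1.51. Its 131 control reads equaled those of an overlapping long noncoding RNA on the opposite strand, which had 35 METTL3-KD reads, and the use of strand in counting is not stated. NDUFS1, NDUFS3 and NDUFV2, also core subunits, were at 0 in the control and had 105, 87 and 170 reads in METTL3-KD cells.

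Among the accessory subunits of complex I, 2 were read in the control, NDUFB1 and NDUFB6, both small membrane-arm proteins. NDUFB1 had 265 and 275 control reads and 12 and 6 METTL3-KD reads (log2 ratio -2.67, 95% interval -3.48 to -2.04). NDUFB6 had 177 and 172 control reads and 9 and 9 METTL3-KD reads (log2 ratio -2.04, -2.86 to -1.40), and it was not past -2 with DESeq2 size factors (-1.79), a prior count of 10 (-1.89), lanes as replicates in edgeR (-1.83) or without either lane (-1.80 and -1.85). Both were well below the control lanes in both METTL3-KD lanes, but each amounted to about 1 unit in either input, 1.05 and 0.928 for NDUFB1 and 0.682 and 0.928 for NDUFB6. NDUFA10, a large accessory subunit, had the most complex I reads in METTL3-KD cells, 120 and 176, and 0 in the control. NDUFA4, counted here by its symbol although its product is known as a complex IV subunit, had 0 control and 9 METTL3-KD reads. NDUFB4 and NDUFS4 had 0 reads in both inputs.

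Of the complex I assembly factors, NDUFAF1, NDUFAF4, NDUFAF5 and NDUFAF8 had 0 reads in both inputs. The other 4 had 0 control reads and 23 to 51 METTL3-KD reads, NDUFAF3 the most (25 and 26) and NDUFAF7 the fewest (17 and 6). Per length, the assembly factors were low: their median was 2.87 CPM per kilobase of transcript (RPKM) in METTL3-KD cells, against 32.1 in complex I.

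Complex II, succinate dehydrogenase, which also works in the citric acid cycle, had 0 control reads in all 4 genes. In METTL3-KD cells the flavoprotein SDHA had 102 and 118 reads, the iron-sulfur subunit SDHB 89 and 79, and the membrane anchors SDHC and SDHD 32 and 23, and 1 and 6. The 3 tested genes had log2 ratios above 2, as had 79.1% of all tested genes. Per length, SDHB stood at 90.3 RPKM, SDHA at 44.6, SDHC at 22.9 and SDHD at 2.85. SDHA has annotated pseudogenes, of which SDHAP4 held 39 and SDHAP1 12 METTL3-KD reads, so reads of SDHA may be split.

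Complex III, which passes electrons from coenzyme Q to cytochrome c, held both the largest control count and the lowest ratio. CYC1 (ENSG00000179091.4, chromosome 8, 145149942 to 145152428, plus strand), the cytochrome c1 subunit, was counted at 899 and 954 reads in control cells and at 29 and 23 in METTL3-KD cells. The control lanes were both far above the METTL3-KD lanes, and the log2 ratio was -2.94 (95% interval -3.39 to -2.57). In units it went from 3.62 to 2.68, a log2 ratio of -0.37 with reads over the lower mode and no scaling to library size. The interval on units under TMM scaling, with the units rounded to 4 and 3, was -5.72 to -0.38. Of the 15 members with at least 10 reads in each input, CYC1 alone had such an interval that excluded 0. This was also so in 7.59% of the 1871 genes read this way. The hinge protein UQCRH had 569 and 560 control reads and 50 and 59 METTL3-KD reads, with a log2 ratio of -1.17. UQCRHL, its intronless copy, had 11 and 6 control reads and 0 and 0 METTL3-KD reads (log2 ratio -2.63), and reads of the near-identical pair cannot be told apart with certainty. The size of the UQCRHL ratio was set by the prior count, with -4.44 and -1.03 at prior counts of 0.5 and 10. Against a floor of 3 METTL3-KD reads, scaled reads of UQCRHL were at least 1.24-fold higher in the control.

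The other 7 complex III genes were at 0 in the control and had log2 ratios above 2. UQCRC1, a core protein, had 87 and 92 METTL3-KD reads, the most in the complex. UQCRC2, the other core protein, had 44 and 63, the Rieske iron-sulfur protein UQCRFS1 had 39 and 57, and the small subunits UQCRQ, UQCR10, UQCRB and UQCR11 ranged from 21 to 93 over both lanes. Within complex III the ratios therefore lay on both sides: CYC1 and UQCRHL under -2, UQCRH between, and 7 above 2. Over all tested genes, 79.1% were above 2 and 7.37% under -2.

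In complex IV, cytochrome c oxidase, the 11 subunits and isoforms used in most tissues were listed apart from the tissue-restricted ones. COX4I2, COX6A2, COX6B2, COX7A1, COX7B2 and COX8C, isoforms known from lung, muscle or testis, had 0 reads in all 4 lanes. NDUFA4L2 and ATP5MGL, also of restricted expression, had 0 reads as well. Of all protein-coding nuclear genes, only 39.6% had at least 1 METTL3-KD read and 10.2% at least 1 control read. Members outside this group, among them NDUFS4, NDUFB4, ATP5F1D and ATP5MC1, also had 0 reads in both inputs. In the METTL3-KD input, 0 reads allow up to 1.64 CPM when 3 reads are taken as the floor and up to 31.7 CPM with a floor of 3 units. COX4I1, the common partner isoform of COX4I2, had 57 and 84 METTL3-KD reads and 0 control reads.

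COX6A1 and COX6B1, both small accessory subunits of complex IV, were the members of this complex with at least 10 control reads. COX6A1 (ENSG00000111775.2, chromosome 12, 120875893 to 120878540, plus strand) had 551 and 611 control reads and 16 and 20 METTL3-KD reads (log2 ratio -2.79, 95% interval -3.34 to -2.34). These counts were the same in every lane as those of an overlapping gene, ENSG00000111780. COX6B1 had 457 and 530 control reads and 31 and 26 METTL3-KD reads, and its log2 ratio was -1.91. COX7C had 85 and 73 METTL3-KD reads, the highest ratio of the complex (7.79), and 0 control reads. COX5A, a subunit of the matrix side, had 2 and 4 METTL3-KD reads and was not tested.

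Complex V, the ATP synthase, had the most members in the control: 6 of 18 at 10 or more reads, and 15 in METTL3-KD cells. Of the 15 tested, 9 were above 2, 6 lay between and none was under -2, against 79.1% above 2 and 7.37% under -2 in all genes. With total-count scaling 3 were under -2: ATP5F1E (-2.77), ATP5PO (-2.62) and ATP5PD (-2.25). In the catalytic F1 part, ATP5F1A (alpha subunit) had 535 and 517 control reads and 355 and 342 METTL3-KD reads. Its log2 ratio of 1.60 was the highest of the 15 members with at least 10 reads in each input, and with 36 units it had the most METTL3-KD reads of all members, rank 130 of 19475 protein-coding genes. ATP5F1B (beta subunit; ENSG00000110955.4, chromosome 12, 57031959 to 57039768, minus strand) had 0 and 0 control reads and 252 and 225 METTL3-KD reads. The alpha and beta subunits are present in equal number in the enzyme, but the control input held 2.05 units of one and none of the other. ATP5F1C (gamma) was at 0 in the control and had 105 and 117 reads in METTL3-KD cells. ATP5F1E (epsilon) had 489 and 501 control and 37 and 44 METTL3-KD reads, a log2 ratio of -1.41, the lowest of the complex. ATP5F1D (delta) had 0 reads in both.

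The peripheral stalk, which holds F1 against rotation, was read in the control in 3 of its 4 genes. ATP5PB had 261 and 272 control reads and 97 and 97 METTL3-KD reads (log2 ratio 0.73). ATP5PD had 253 and 244 control reads and 29 and 29 METTL3-KD reads (-0.90). ATP5PO had 488 and 503 control reads and 37 and 53 METTL3-KD reads (-1.26), and an overlapping gene had the same counts. The fourth gene, ATP5PF, was at 0 in the control, with 28 and 26 reads in METTL3-KD cells. The ratios of this group therefore differed in sign under TMM scaling. Under total-count scaling ATP5PB also was below 0 (-0.63).

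ATP5MC1, ATP5MC2 and ATP5MC3 encode the same mature c subunit of the membrane ring. ATP5MC3 had 487 and 546 control reads and 95 and 112 METTL3-KD reads, a log2 ratio of -0.13 that was 0.13 with DESeq2 size factors. ATP5MC2 was read in METTL3-KD cells only (34 and 37 reads, 0 in the control), and ATP5MC1 had 0 reads in both. The small membrane subunits ATP5ME, ATP5MF, ATP5MG, ATP5MJ and ATP5MK had 3 control reads in all and 57 to 125 METTL3-KD reads each. All 5 were above 2, as were 79.1% of all tested genes. Per length, ATP5ME was the highest member in METTL3-KD cells with 225 RPKM, followed by NDUFA13 (160 RPKM), ATP5F1B (148 RPKM) and COX7A2 (142 RPKM). By complex the median was 54.0 RPKM in complex V, 33.8 in complex II, 32.1 in complex I, 27.0 in complex IV and 24.7 in complex III.

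Over the 15 members with at least 10 reads in each input, the median log2 ratio was -1.17 (range -2.94 to 1.60), against -0.61 over the 1871 genes read this way. Of the 15, 12 were below 0, against 63.9% of the 1871 genes. With total-count scaling it was 13 and 86.4%, and with DESeq2 size factors 11 and 58.5%. On units, without scaling to library size, the ratio of 3 of the 15 (CYC1, COX6A1 and NDUFB1) and of 14.3% of the genes was below 0. The other 9 were above 0 on units, a measure that does not correct for the number of units in each library. A log2 ratio under -2 was reached by 4 of the 15 (CYC1, COX6A1, NDUFB1 and NDUFB6) and by 21.3% of the 1871 genes, and one above 2 by none of the 15 and 7.80% of the genes. Counting reads, the 95% interval excluded 0 in 14 of the 15 and in 90.9% of the genes. Counting units, it did so in 1 under TMM scaling, CYC1, and in 7.59% of the genes, and under total-count scaling in 2, CYC1 and COX6A1, and in 22.9% of the genes.

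**Figure D4:**
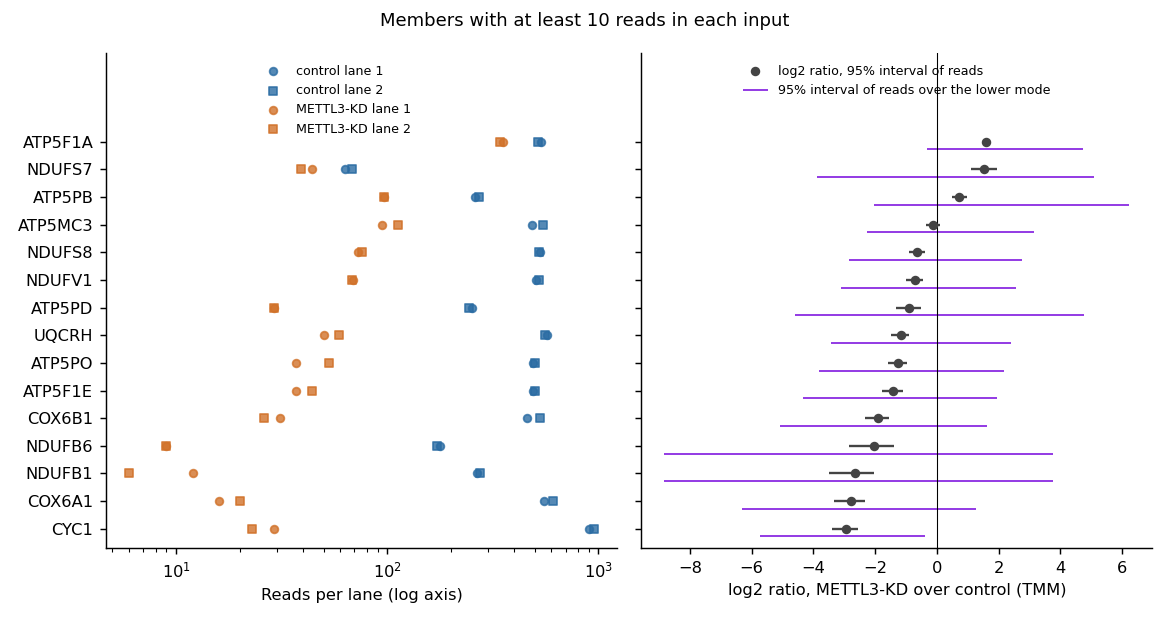
Left, reads per lane (log axis) of the 15 genes with at least 10 reads in each input, control in blue and METTL3-KD in orange. Right, the log2 ratio with its 95% interval from reads (gray) and the interval from reads over the lower mode (purple), both under TMM scaling. The lanes of an input lie close together, the ratios run from -2.94 in CYC1 to 1.60 in ATP5F1A, and 14 of the 15 purple intervals include 0.

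Many members share sequence or position with other genes. Of the 96, 54 have at least 1 annotated pseudogene or copy by symbol. Median METTL3-KD reads were 50 in the 42 members with none, 74 in the 38 members with 1 to 4 and 64 in the 16 members with 5 or more. Reads of 31 members may include those of an overlapping gene that has reads, in 28 of them with overlapping exons. In 6 members (NDUFA7, NDUFA9, NDUFA11, NDUFC2, COX6A1 and ATP5PO) the counts in all lanes equaled those of an overlapping gene.

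Related genes outside the rule were counted from listed groups. Of 44 other assembly factors in the table, 24 were tested, 20 were above 2, 3 were under -2 and 1 lay between, with a median of 5.51. The 3 were TMEM126B, a complex I assembly factor, with 1135 and 0 reads in control and METTL3-KD cells, ECSIT with 868 and 10, and COA6, a factor for complex IV, with 416 and 0. Of 15 genes of electron carriers, coenzyme Q synthesis and the ATP synthase inhibitor ATP5IF1, 8 were tested, ATP5IF1 among them, and all 8 were above 2. Of 12 regulators of mitochondrial gene expression, 7 were tested, 4 were above 2 and 2 under -2. Of the 13 mitochondrially encoded subunits, 9 were above 2, 4 lay between and none was under -2, and they held 11736 control and 13938 METTL3-KD reads. These values are read against the same backgrounds of 79.1% and 7.37%.

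Peaks of both m6A lists were placed on the members, with q values under 0.01. The control list of 2298 peaks had 16 in members, 10 with the summit in an exon and 6 in an intron. The METTL3-KD list of 830 peaks had 2, both in exons. No member had an exonic peak in both lists. The exonic control peaks lay in 9 genes, 9.38% of the members, against 6.32% of protein-coding nuclear genes. Among genes with at least 10 METTL3-KD reads, the shares were 12% of members and 13.9% of genes. In the METTL3-KD list 2.08% of members and 1.84% of genes had an exonic peak, and 1.33% and 3.15% among those with at least 10 METTL3-KD reads.

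The exonic control peaks had little support. Of the 10, 8 had a pileup of 1, which is 1 fragment after duplicates were removed, and COX8A and UQCR11 had a pileup of 2. These 2 and ATP5F1E in the METTL3-KD list were the exonic peaks that also exceeded a fold of 2, the study's full criterion for a significant peak. In the control peaks the fold was 1.999 at a pileup of 1 and 2.999 at a pileup of 2, so this limit repeats the pileup. Each of the 9 genes (NDUFA8, NDUFB3, UQCR11, UQCRFS1, UQCRQ, COX4I1, COX7A2L, COX8A and ATP5F1B) had 0 reads in the control input, as had 80.1% of the 1231 protein-coding genes with an exonic control peak. Higher pileups among the members were in introns, 4 in NDUFA8 and 3 in ATP5F1B.

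By position, 8 of the 10 were in coding sequence and 2 in a 3′UTR, those of COX8A and NDUFB3. The summit was within 100 nt of the stop codon in 7 of the 10 (70.0%), a stretch that makes up 21.4% of these mRNAs on average. Among the 1232 control summits in exons of the canonical transcripts of protein-coding genes it was 9.50%, where the stretch makes up 7.18%. The nearest was that of ATP5F1B, 5 nt before the stop codon, and those of COX4I1 and UQCRQ were 16 and 35 nt before it. The summit lay in the last exon in 7 of the 10, an exon that makes up 61.2% of these mRNAs. Over all these summits the share was 45.3%, where the last exon makes up 49.6%.

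The strongest exonic peak of the members was in the METTL3-KD list. It lay in coding exon 2 of 3 of ATP5F1E (chromosome 20, 57605360 to 57605461), 50 nt before the stop codon, with a pileup of 7 and a fold of 7.36 over the local background. The AGACT shown above is 9 nt from its summit. ATP5F1E was read in both inputs, so this peak stood over covered input. The second METTL3-KD peak, in the 3′UTR of ATP5F1D, had a pileup of 1, and the gene had 0 reads in both inputs. A control m6A peak was not called at either site, but with 7920 distinct positions in the control m6A library and 4508 in that of METTL3-KD cells, a difference in methylation was not detectable at this depth.

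DRACH motifs were present within 50 nt of the summit in 6 of the 10 exonic control peaks and in both METTL3-KD peaks. Among all exonic peaks of protein-coding genes the shares were 84.7% and 84.0%. Of all windows of 101 nt in the members' mRNAs, 82.2% held the motif on the sense strand, so its presence distinguishes little at this window size.

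**Figure D5:**
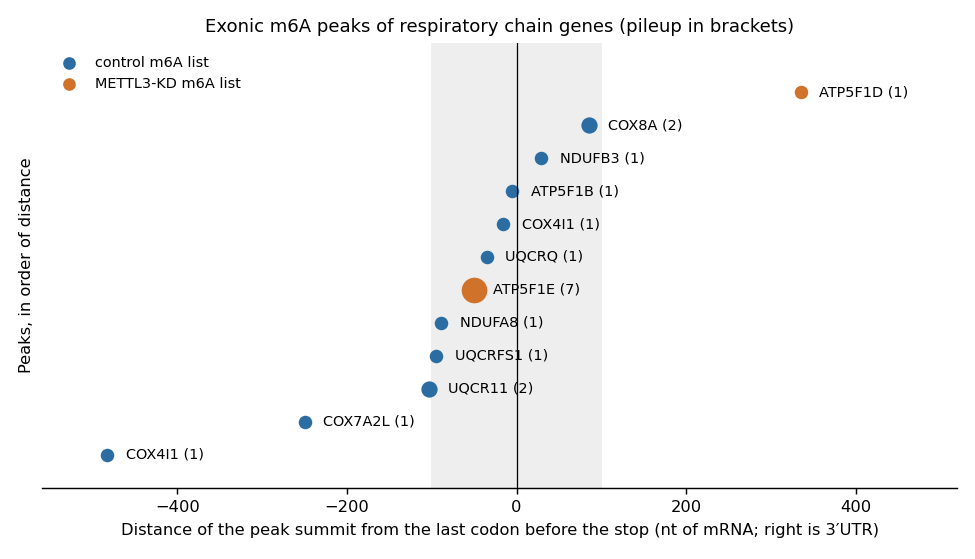
Summits of the 12 exonic m6A peaks of the members by distance from the stop codon in nt of mRNA (negative values are coding sequence), ordered by distance, with the pileup in brackets and as point size. Control peaks are blue and METTL3-KD peaks orange. The gray band spans 100 nt on either side, and it holds 7 of the 10 control summits and ATP5F1E, the only point with a pileup of 7.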

How the data were processed

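Input and m6A libraries of control and METTL3-KD cells (1 each, 2 lanes) were used. Per the study's methods, the authors used Bowtie2 to discard ribosomal sequences, HISAT2 to align to hg19 and featureCounts to count. The deposited table holds raw counts of reads for each gene. The annotation, the treatment of strand and of reads with several alignments are not given in the sources used here, and the library kit was stranded. The authors called peaks with MACS2 2.1.1 on pooled lanes, with 1 read kept per position. Their pileup is a signal of retained fragments, the deposited fold is a ratio to the local background and the deposited −log10 column holds q values. File headers give a q cut-off of 0.05 and the methods 0.01, which was used. The study's definition of a significant peak also asks for a fold above 2, which was an alternative here.

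Gene symbols came from GENCODE release 44 lifted to GRCh37, and 7903 genes in the table had no match there. Log2 ratios were computed in R 4.3.3 with edgeR 4.0.16 (TMM over all genes, prior count 2, at least 10 reads over both inputs), and DESeq2 1.42.0 was an alternative. The ratio script was tested on simulated data. RPKM used the length of the canonical transcript. Modes were read from a kernel density of log2 reads (bandwidth 0.08). With 1 library per condition there was no test and no p-value, and members past a log2 ratio of 2, the size threshold of the study, were counted. Lane deviations of the inputs correlated at -0.0117 over 1871 genes. Lanes of 1 library may differ by sampling alone, so this value cannot decide whether the lane numbers paired the samples.

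Members, lists and thresholds were chosen with earlier results of these data known, and the subunit roles were grouped after the values were seen. Named members were those with at least 10 reads in both inputs, a log2 ratio under -2, the 5 most reads in an input, the extreme ratios of a complex, an exonic peak, a tissue-restricted isoform or 0 reads in both inputs; others were named after their values were seen to complete a role or complex. Motif windows were limited to DRACH sites in an exon within 25 nt of a summit, a limit set after the sites were seen. 1 gene is not reported by name here, and it stays in the counts and sums.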

Additional observations from a re-analysis of the deposited data

How the results depend on the processing

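Of 104 alternatives to the comparisons over members and complexes, 55 stayed within their limit (1.5 times for counts, the 95% interval otherwise). The 60 members above 2 numbered 0 when 10 reads were required in each input and 23 without the members that have annotated copies, which leaves fewer genes tested. The 5 members under -2 numbered 11 with total counts, 0 with reads over the lower mode, 3 with a prior count of 10, 2 without members with copies and 9 at a log2 ratio beyond 1. The median of 6.30 reversed to -1.17 with 10 reads in each input, and was 5.31 with total counts, 2.93 with reads over the lower mode, 8.25 and 4.10 with prior counts of 0.5 and 10, 6.83 with at least 50 reads and 9.91 with lanes in DESeq2. Leaving out a lane gave 55 to 57 members above 2, 3 to 4 under -2 (NDUFB6 was lost without either lane, at -1.80 without lane 1, and UQCRHL without lane 1, where it fell under 10 reads) and medians of 5.61 to 5.65. The shares of counted reads became 0.452% and 0.453% without mitochondrially encoded genes.

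The summed log2 ratios of complexes I, III, IV and V were 2.28, 0.47, 1.35 and 1.48 with DESeq2 size factors, 0.65, -1.16, -0.28 and -0.15 with total counts, and 4.56, 2.74, 3.62 and 3.75 with reads over the lower mode. Without a lane they ranged from 2.18 to 2.24, 0.33 to 0.45, 1.27 to 1.28 and 1.40 to 1.41. The bound for complex II (9.42) was 8.05 with total counts and 8.59 to 8.62 without a lane. It was 2.95 with reads over the lower mode and a floor of 3 units, without scaling to library size. With TMM scaling the floor of 3 units gave a bound of 1.34-fold, and with total counts complex II lay under that floor. Reads over the lower mode are not scaled to library size, and with them 9 of the named members changed sign. NDUFB6 reversed to 0.27, and COX6B1, ATP5F1E, ATP5PO, UQCRH, ATP5PD, NDUFV1, NDUFS8 and ATP5MC3 went from below 0 to between 0.50 and 2.15. With lanes as replicates, edgeR gave 60 members above 2, 4 under -2 and a median of 6.48 with the replicate block, the same as without it.

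The 10 exonic control peaks numbered 2 with q under 0.001, 0 when 4-fold enrichment was required and 2 when it had to exceed 2-fold, as the study asks. The 2 METTL3-KD peaks numbered 1 under each of these. Where not shown by construction (fewer genes, samples or peaks), the cause was not tested. No result met the limits for an unusual sample, since no group had 4 samples.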
